A study of Homo sapiens with 6 samples.

Results

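The genes described here encode the proteins of the mitochondrial ribosome that carry MRPS (small subunit) or MRPL (large subunit) symbols. They were chosen by name and by count, as the rows of the deposited count table whose symbol is MRPS or MRPL followed by a number and at most 1 letter from A to C, with at least 10 counts in every culture. Of 26485 gene rows, 77 matched the name and 76 also passed the count rule, 28 with MRPS and 48 with MRPL symbols. Totals by subunit below follow the symbol alone, which need not match the place of every protein. No fold change entered this choice. MRPS24 was the member left out, with 2, 5 and 3 counts in the knockdown cultures and 1, 12 and 1 in the control cultures. The lowest count among the 76 members was 116, for MRPS36, so no member lay near the count limit. All 76 passed the filter on low counts that preceded the test.

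The mitochondrial ribosome (mitoribosome) translates the few messenger RNAs encoded by mitochondrial DNA, all of which specify subunits of the oxidative phosphorylation complexes. Its ribosomal RNAs are transcribed inside the organelle, but its proteins are encoded in the nucleus, made in the cytosol and imported. Many of these proteins have homologues in bacterial ribosomes and others are found only in mitochondria, and inherited defects of several of them cause multisystem disease with failure of oxidative phosphorylation.

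RNA-seq was performed on 6 cultures of HEK293, a cell line established from human embryonic kidney, to ask what changes when the long noncoding RNA HSALNG0134318 is knocked down. The study selected this RNA from a copy number variant region at 22q11.2 linked to kidney and urinary tract anomalies present at birth. The knockdown group was 3 cultures transfected transiently with a Smart Silencer, which combines small interfering RNAs with antisense oligonucleotides against the same RNA, and the control group was 3 cultures whose labels read both NC and WT, without saying what they received. The sample titles spell the cell line HEK393 and the other labels HEK293.

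Both groups share 1 cell line, so the values describe HEK293 under transient transfection and no kidney tissue. Library totals ran from 13900965 to 16869948 counts, and the level of HSALNG0134318 itself was not analysed here. HEK293 markers were detected in every culture, with 95 to 221 counts of PAX2, 1881 to 2671 of NEFL and 9127 to 13918 of VIM, while PTPRC, PECAM1 and ALB had at most 5 counts, and the fibroblast marker COL1A1 had 571 to 699. In these bulk samples, less RNA per cell and fewer cells of one state cannot be told apart.

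The promoters of 4 members are shown because the results below turn on them or refer to them. MRPS25 and MRPL39 were the members that passed the test, MRPL40 lies at 22q11.2, and MRPL20 holds 2 kinds of motif that were frequent among the members. Each runs 5′ to 3′ on the strand of its gene, from 250 bases before the annotated start to 50 bases from it on, and was taken from RefSeq on GRCh38.p14. Capitals mark matches on either strand to the motif letters CCGGAAG (ETS family, which includes GABPA), GGGCGG (SP family) or AAGATGGC (YY1). The windows are chr3:15065266-15065565 (minus strand) for MRPS25, chr21:25607432-25607731 (minus strand) for MRPL39, chr22:19432295-19432594 (plus strand) for MRPL40 and chr1:1407244-1407543 (minus strand) for MRPL20.
MRPS25: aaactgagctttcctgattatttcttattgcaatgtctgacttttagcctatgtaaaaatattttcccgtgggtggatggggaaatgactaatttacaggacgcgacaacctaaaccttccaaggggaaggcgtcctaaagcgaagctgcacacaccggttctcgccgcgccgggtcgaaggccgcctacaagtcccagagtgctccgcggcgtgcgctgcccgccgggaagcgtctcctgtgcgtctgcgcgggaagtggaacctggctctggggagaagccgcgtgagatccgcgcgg
MRPL39: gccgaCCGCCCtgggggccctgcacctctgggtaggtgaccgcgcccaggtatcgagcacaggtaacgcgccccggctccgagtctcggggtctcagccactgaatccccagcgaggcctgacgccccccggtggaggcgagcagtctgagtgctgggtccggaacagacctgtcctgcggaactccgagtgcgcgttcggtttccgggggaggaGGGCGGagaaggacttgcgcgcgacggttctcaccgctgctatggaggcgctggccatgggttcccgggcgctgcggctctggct
MRPL40: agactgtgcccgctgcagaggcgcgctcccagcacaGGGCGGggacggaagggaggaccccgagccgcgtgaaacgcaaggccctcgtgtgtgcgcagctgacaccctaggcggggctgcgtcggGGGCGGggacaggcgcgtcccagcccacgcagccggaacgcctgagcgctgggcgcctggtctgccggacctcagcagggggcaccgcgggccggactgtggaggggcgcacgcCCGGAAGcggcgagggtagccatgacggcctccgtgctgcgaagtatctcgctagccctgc
MRPL20: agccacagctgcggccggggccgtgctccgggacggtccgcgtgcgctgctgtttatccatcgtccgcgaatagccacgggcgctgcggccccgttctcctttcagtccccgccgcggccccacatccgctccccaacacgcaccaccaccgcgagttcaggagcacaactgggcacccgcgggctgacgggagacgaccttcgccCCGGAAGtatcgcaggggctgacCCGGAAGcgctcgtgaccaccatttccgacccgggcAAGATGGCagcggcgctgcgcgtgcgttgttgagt

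In these windows, MRPS25 held no match, MRPL39 held 2 SP matches, MRPL40 held 1 ETS and 2 SP matches, and MRPL20 held 2 ETS matches and 1 YY1 match. The YY1 letters of MRPL20 began 16 bases into the transcript.

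Expression of most members differed little between the groups. Of the 76 members, MRPS25, a small subunit protein found only in mitochondria, rose after knockdown, and MRPL39, a large subunit protein that also lacks a counterpart in bacterial ribosomes, fell. Both were called with edgeR's quasi-likelihood test at a Benjamini-Hochberg adjusted p under 0.05 over 14877 genes. These calls are 1.32% of the members in each direction, beside 5.4% of all genes tested called higher and 4.64% called lower. At an unadjusted p under 0.05 there were 11 members, 9 lower and 2 higher, against 26.9% of all genes. The labels present the cultures as replicates. Each p value sets the difference between the groups against the variation among these 3 and 3 cultures, estimated in part from all genes.

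The log2 fold changes (knockdown over control) ran from -0.73 to 0.61, with a median of -0.09 beside -0.02 over all genes tested. They were negative for 59 members and positive for 17, so 77.6% were negative, beside 52.7% of all genes. Their size was under 0.25 for 57 members, which is 75% beside 59.1% of all genes, and under 0.5 for 74. The 95% interval of the log2 fold change lay within ±0.5 for 44 members and within ±1 for 74, and standard errors had a median of 0.138, against 0.139 over all genes.

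**Figure D1:**
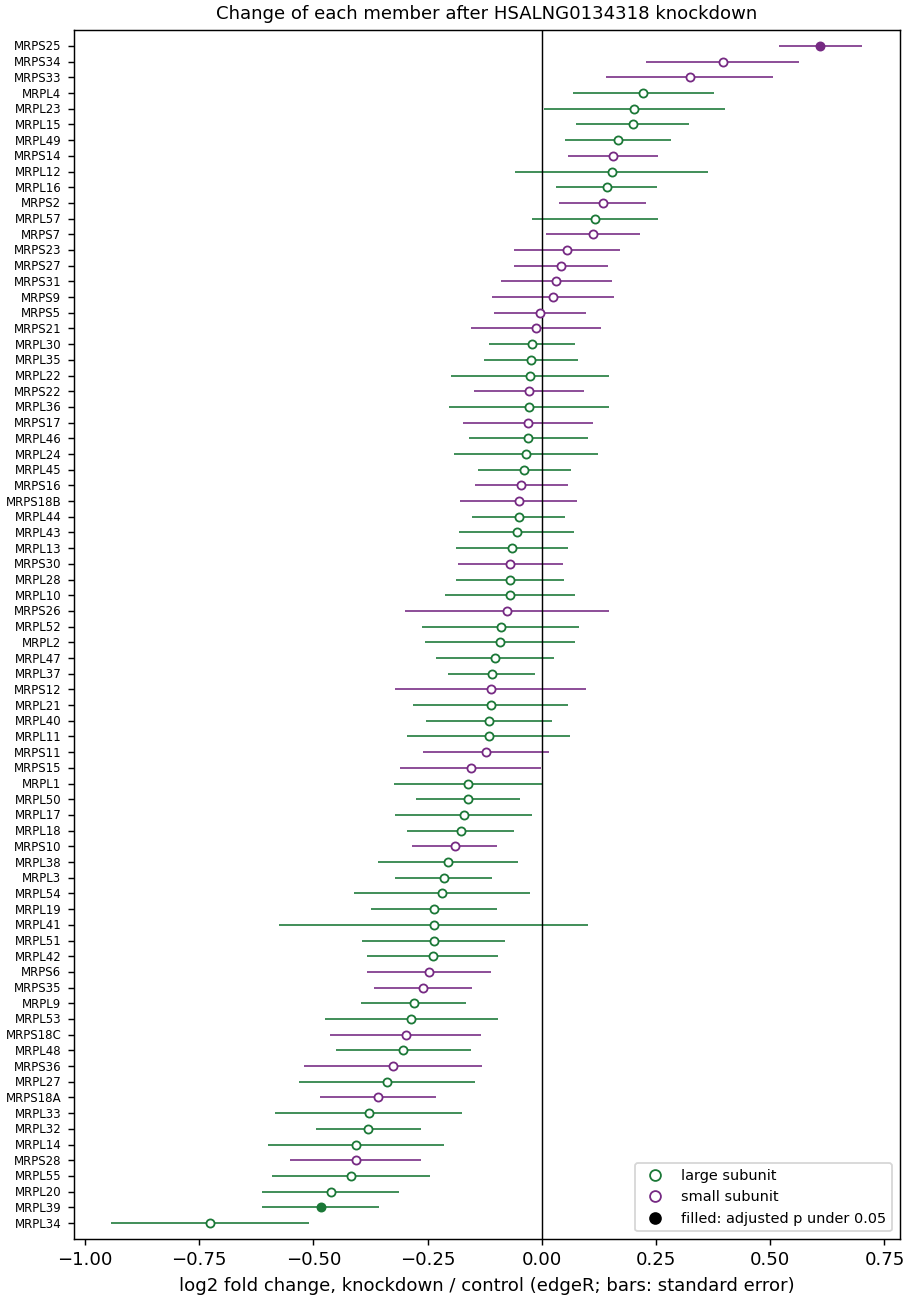
Log2 fold change (knockdown over control, x axis) of each of the 76 members (y axis), with bars for 1 standard error, filled where the adjusted p was under 0.05. Green marks the large and purple the small subunit, as given by the symbol. MRPS25 at 0.61 and MRPL39 at -0.48 are the filled points, and 59 of the 76 points lie left of 0.

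Without regard to any test, all 3 knockdown cultures lay below all 3 controls for 12 members, 15.8% of them, and the same held for 15.8% of all genes tested. The 12 were MRPL3, MRPL9, MRPL20, MRPL32, MRPL34, MRPL39, MRPL50, MRPL55, MRPS10, MRPS18A, MRPS28 and MRPS35. All 3 knockdown cultures lay above the controls for MRPL49, MRPS14 and MRPS25, which is 3.95% of members beside 16.4% of all genes.

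The small subunit binds the messenger RNA and decodes it. The 28 members with MRPS symbols had log2 fold changes with a median of -0.04, and 18 were negative. This class by symbol includes members that do not belong to the small subunit, among them MRPS18A and MRPS36, which are described below. The median was 0.02 without control replicate 2. MRPS25 was the clearest change in this class. Its normalised counts were 1139, 1202 and 1156 in knockdown replicates 1 to 3 and 755, 743 and 794 in control replicates 1 to 3. The groups did not overlap, and the gap between them was wider than the spread within either. The means were 1166 ± 32.3 and 764 ± 27.0 (SD, n = 3 cultures each), a 1.53-fold rise, with a log2 fold change of 0.61 ± 0.091 (SE), a 95% interval from 0.41 to 0.81 and an adjusted p of 0.0021 (edgeR).

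MRPS25 (ENSG00000131368) lies at chr3:15009611-15065339 on the minus strand of hg38. With each culture left out in turn its log2 fold change stayed between 0.59 and 0.64, and the call held in 14 of 14 alternative settings, with adjusted p values up to 0.022. NR2C2, which overlaps it on the opposite strand, had 2489 to 2796 counts and a log2 fold change of 0.16 (adjusted p = 0.287, edgeR). ENSG00000289750 overlaps MRPS25 on the same strand, where a strand setting would not separate the reads. The strand setting of the counting is not given in the sources used here, so reads of overlapping genes may be shared.

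MRPS34, another small subunit protein without a bacterial homologue, had the next largest positive value, and its groups overlapped. Its normalised counts were 1448, 1352 and 1535 after knockdown and 841, 1446 and 1004 in control replicates 1 to 3. Control replicate 2 alone reached the range of the knockdown cultures, and the log2 fold change of 0.40 had an adjusted p of 0.160. Without control replicate 2 it was 0.65, with an adjusted p of 0.00045 (edgeR). Without control replicate 1 it was 0.24, with an adjusted p of 0.370 (edgeR). Control replicate 2 was the only culture whose removal led to a call on MRPS34.

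MRPS33 had 400, 349 and 304 normalised counts after knockdown and 203, 336 and 301 in the controls. The ranges overlapped, and the log2 fold change of 0.32 had an adjusted p of 0.287. MRPS28 had 149, 148 and 170 after knockdown and 201, 220 and 198 in the controls. These groups did not overlap, but the log2 fold change of -0.41 had an adjusted p of 0.096 and did not pass under any of the 14 alternatives. The least abundant member by counts, MRPS36, which was named as a ribosomal protein and is now known as the KGD4 subunit of the 2-oxoglutarate dehydrogenase complex, was at -0.33 on the log2 scale (adjusted p = 0.316). It was highest in control replicate 2, without which the value was -0.10.

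The genes MRPS18A, MRPS18B and MRPS18C encode homologues of the same bacterial protein, S18, and MRPS18A takes its place in the large subunit in spite of its symbol. Their log2 fold changes were -0.36 for MRPS18A (adjusted p = 0.096), -0.05 for MRPS18B (adjusted p = 0.838) and -0.30 for MRPS18C (adjusted p = 0.276). MRPS18A was the only one of the 3 whose groups did not overlap, with 655, 541 and 538 after knockdown and 665, 841 and 717 in the controls. None of the 3 passed the test with all cultures, and without control replicate 2 the values were -0.26, 0.05 and -0.24.

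**Figure D2:**
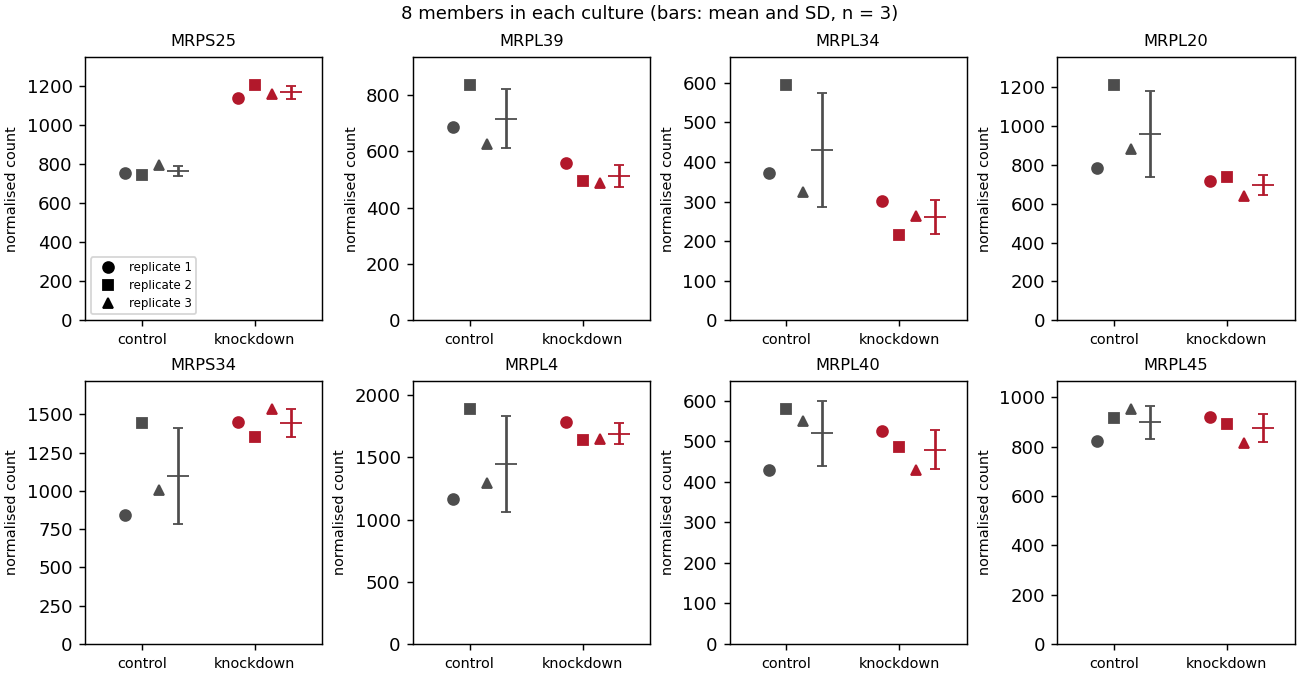
Normalised counts (y axis, from 0) of 8 members in the control (grey) and knockdown (red) cultures, with symbols for replicates 1 to 3 and bars for the mean and SD (n = 3). MRPS25 is separated without overlap (743 to 794 against 1139 to 1202), while control replicate 2 is the highest control of MRPL39, MRPL34, MRPL20, MRPS34, MRPL4 and MRPL40.

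The large subunit forms the peptide bonds and holds the exit tunnel. The 48 members with MRPL symbols had a median log2 fold change of -0.11, and 41 were negative. Without control replicate 2, the highest culture for 75% of them, the median was -0.02. MRPL39 had normalised counts of 558, 493 and 486 in the knockdown cultures and 688, 834 and 628 in the controls. All knockdown values lay below all controls, and control replicate 2 was the highest value. The means were 513 ± 39.6 and 717 ± 106 (SD, n = 3), so knockdown stood at 0.715 of control, with a log2 fold change of -0.48 ± 0.128 (SE), a 95% interval from -0.76 to -0.20 and an adjusted p of 0.035 (edgeR).

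The call on MRPL39 (ENSG00000154719, chr21:25585656-25607517, minus strand) depended on the cultures used. It held in 10 of 14 alternatives and was lost without knockdown replicate 1 (adjusted p = 0.068), knockdown replicate 2 (0.147), knockdown replicate 3 (0.157) or control replicate 1 (0.082), all by edgeR. Without control replicate 2 the log2 fold change was -0.36 and the call held (adjusted p = 0.033).

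MRPL34, homologue of a small bacterial large subunit protein, had the most negative log2 fold change of all members, -0.73. Its counts were 302, 216 and 263 after knockdown and 371, 594 and 325 in the controls. The groups did not overlap, but the control SD was 144 around a mean of 430, and the adjusted p was 0.058. Without control replicate 2 the log2 fold change was -0.42 (adjusted p = 0.062), and without control replicate 3 it was -0.89 (adjusted p = 0.021, edgeR).

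MRPL20 had 715, 735 and 637 normalised counts after knockdown and 784, 1208 and 882 in the controls. No knockdown culture reached a control, and the log2 fold change of -0.46 had an adjusted p of 0.075. MRPL55 had 309, 299 and 272 after knockdown and 311, 507 and 356 in the controls, so control replicate 1 stood beside the knockdown range. Its log2 fold change was -0.42 (adjusted p = 0.148). The values of both shrank without control replicate 2, to -0.26 and -0.18.

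Around the exit of the tunnel, where the new chain leaves the ribosome near the inner membrane, 6 members were tested (MRPL17, MRPL22, MRPL23, MRPL24, MRPL45 and MRPL47). None passed the test, and their median log2 fold change was -0.04, or 0.06 without control replicate 2, when MRPL23 passed as higher. MRPL45, which ties the ribosome to the membrane at the tunnel exit and lies at 17q12 (chr17:38297023-38323217, plus strand), had 921, 891 and 813 normalised counts after knockdown and 824, 917 and 953 in the controls. The ranges overlapped, with a log2 fold change of -0.04 (95% interval -0.26 to 0.19, adjusted p = 0.847). MRPL23 had 227, 206 and 216 after knockdown and 140, 251 and 171 in the controls, so control replicate 2 exceeded every knockdown culture, and its log2 fold change was 0.20 (adjusted p = 0.553).

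In the central protuberance, which rises from the top of the large subunit, all 7 tested members had negative log2 fold changes, with a median of -0.21 and none past the test. All 7 also had their highest value of the 6 cultures in control replicate 2, and the median was -0.03 without that culture. MRPL40, which lies at 22q11.2 like HSALNG0134318 (chr22:19432545-19436075, plus strand), had 524, 485 and 429 normalised counts after knockdown and 429, 580 and 549 in the controls. The lowest control and the lowest knockdown value were nearly equal, and the log2 fold change was -0.12 (95% interval -0.42 to 0.19, adjusted p = 0.638).

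The 6 members listed under the stalks of the large subunit were MRPL1, MRPL10, MRPL11, MRPL12, MRPL53 and MRPL54. They had log2 fold changes from -0.29 for MRPL53 to 0.15 for MRPL12, with a median of -0.14 and none past the test. The median was 0.07 when control replicate 2 was left out, and MRPL12 then passed the test as higher. Of members listed as having a bacterial homologue, 46 were tested and none passed, with a median of -0.10 that turned to 0.01 without that culture. The list as used also counts MRPL41 and MRPL49, which are generally regarded as specific to mitochondria, with log2 fold changes of -0.24 and 0.17. It leaves out MRPS18A and MRPS18B, which are homologues of bacterial S18 and fall among the other members. The division is therefore approximate. The 30 other members had a median of -0.08 and held both calls.

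Levels of different members were compared only as normalised counts per kb of the canonical transcript, averaged over the 6 cultures. The median was 431 per kb, and the highest levels were those of MRPL37 (1585 per kb), MRPL4 (1288) and MRPS34 (1273). The lowest were MRPL42 (71.0), MRPS33 (75.0) and MRPL50 (107). For MRPL42 and MRPS33 the canonical transcripts, 15557 and 4210 nt long, far exceed the shortest coding transcripts of 692 and 622 nt, so these levels depend on the transcript model.

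MRPL37, a large subunit protein found only in mitochondria, was at -0.11 on the log2 scale (adjusted p = 0.498). MRPL4, whose bacterial homologue reaches into the exit tunnel, had 1785, 1639 and 1646 normalised counts after knockdown and 1161, 1889 and 1292 in the controls, a wide control range that enclosed all knockdown values. Its log2 fold change was 0.22 (adjusted p = 0.391). MRPL50 had 337 ± 1.36 after knockdown and 377 ± 22.8 in the controls (SD, n = 3). Its groups did not overlap, yet the log2 fold change of -0.16 had an adjusted p of 0.395.

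The 6 cultures differed more among the controls than among the knockdowns. Members took 0.350%, 0.333% and 0.333% of all counts in knockdown replicates 1 to 3, and 0.317%, 0.395% and 0.348% in control replicates 1 to 3. The knockdown shares lay inside the control range. The ratio of counts with MRPS symbols to counts with MRPL symbols was 0.656, 0.644 and 0.650 after knockdown and 0.617, 0.572 and 0.597 in the controls. Every knockdown culture stood above every control. The ratio follows the symbols, so it need not reflect the balance of the subunits. Members with MRPL symbols had a median length of 1196 nt and GC content of 50.6%, against 1472 nt and 46.5% with MRPS symbols. Their median log2 excess in control replicate 2 over the other controls was 0.35, against 0.17. What part length and GC content have in the ratio was not tested.

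Control replicate 2 held the highest value of the 6 cultures for 48 of 76 members (63.2%), beside 27% of all genes, and control replicate 1 held the lowest for 32. The root mean square log2 difference over the members was 0.144 to 0.173 between knockdown cultures. Between controls it was 0.264 for replicates 1 and 3, 0.393 for 2 and 3 and 0.52 for 1 and 2. Between a knockdown and a control culture it was 0.251 to 0.462, so the largest distance over the members lay within the control group. Over all genes it lay between the groups, at 0.545 for knockdown replicates 2 and 3 against control replicate 2. Within the controls it was at most 0.485, for replicates 2 and 3, and 0.445 for replicates 1 and 2.

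**Figure D3:**
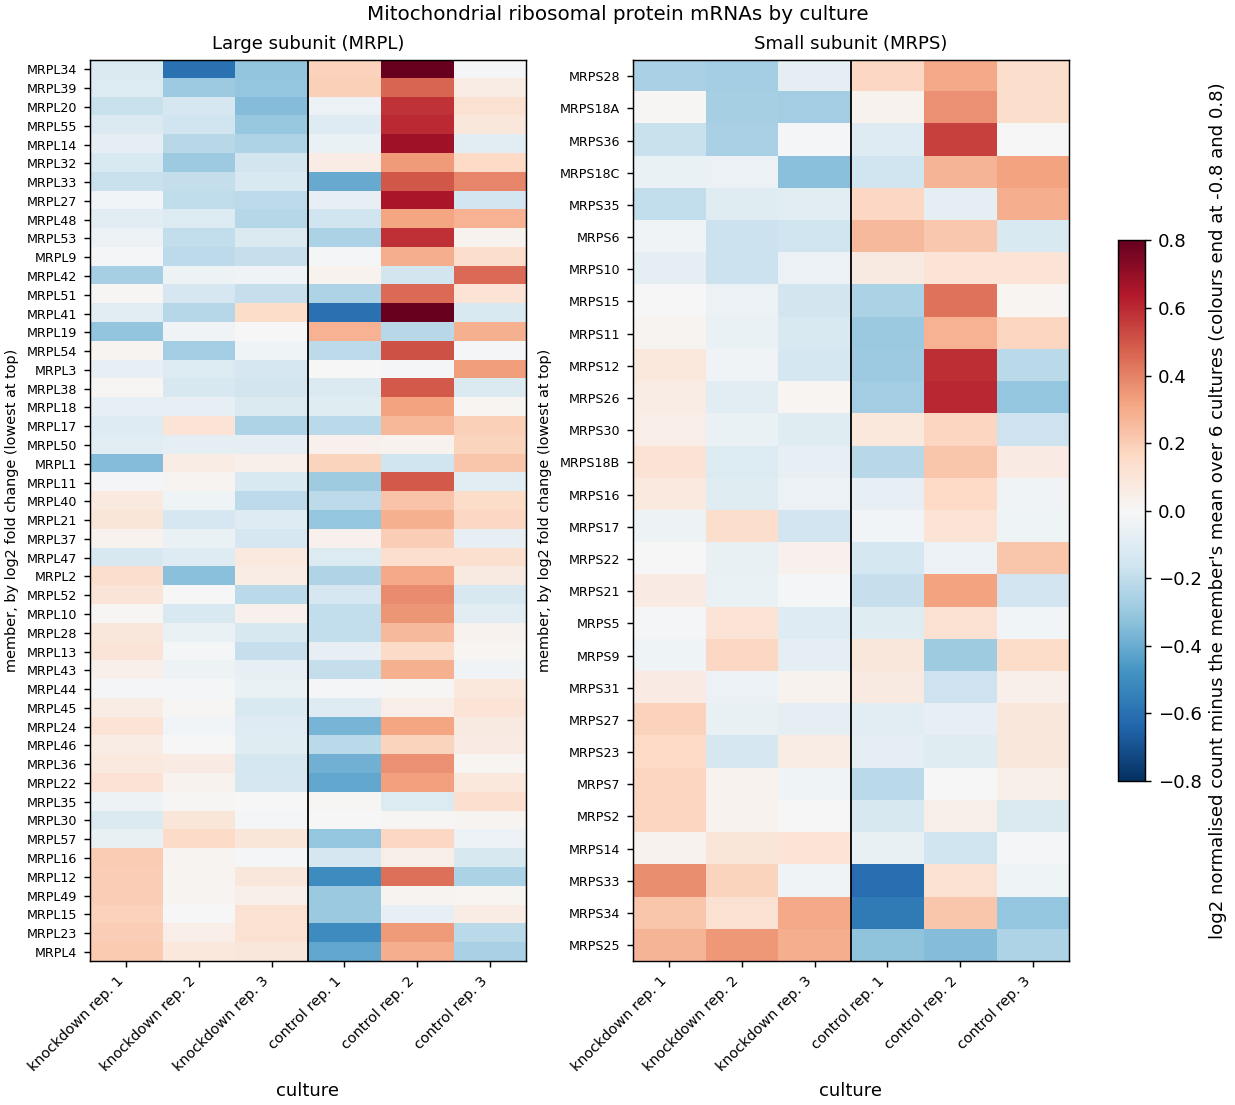
Log2 normalised count of each member (rows) in each culture (columns) minus the mean of the member over the 6 cultures, red above and blue below that mean, with colours ending at -0.8 and 0.8. Control replicate 2 is the reddest column, with the highest value for 48 of 76 members, and MRPS25 is blue in all controls and red in all knockdown cultures.

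The excess of control replicate 2 over the other controls moved with transcript length and GC content. Its median log2 excess was 0.54 for the 24 members with a canonical transcript under 1 kb, of which all 24 were higher there. It was 0.21 for the 34 members of 1 to 2 kb and 0.01 for the 18 members of 2 kb or more. Over all genes tested the same classes had medians of 0.34, 0.19 and -0.05, and the median over all lengths was 0.002. The members are short, with a median of 1288 nt against 3283 nt over all genes.

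Across the 76 members, the excess had a Pearson r of -0.61 (Spearman rho -0.63) with log2 length and of 0.71 (rho 0.70) with GC content. Over 14476 genes with a known transcript these r were -0.32 and 0.50. These are descriptions across genes that share the same libraries, and genes are not replicates.

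**Figure D4:**
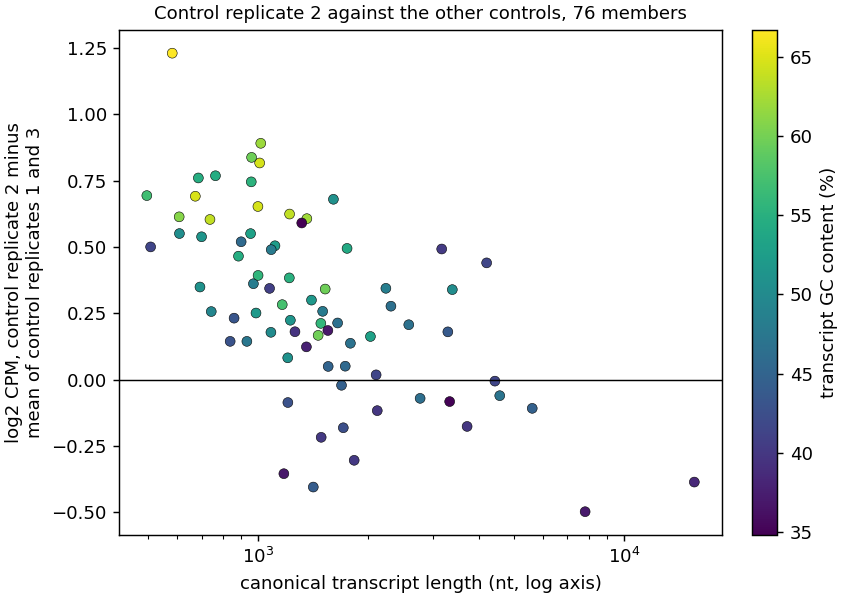
Log2 CPM of control replicate 2 minus the mean of control replicates 1 and 3 (y axis) against canonical transcript length in nt (x axis, log scale), with 1 point per member coloured by GC content. All 24 members under 1 kb lie above 0, and the 18 members of 2 kb or more have a median of 0.01.

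The negative lean of the members followed the same split. The median log2 fold change was -0.23 for members under 1 kb, -0.07 for 1 to 2 kb and -0.02 for 2 kb or more. Without control replicate 2 these medians were -0.02, 0.00 and 0.02, and the 76 members divided into 38 negative and 38 positive values with a median of 0.002. The member median moved the other way, to -0.18, without control replicate 1, and was -0.13 without knockdown replicate 1. It was -0.08 without control replicate 3, -0.08 without knockdown replicate 2 and -0.06 without knockdown replicate 3. With all 6 cultures and each library corrected for its trend with GC content and length, the median over the members was -0.07, against -0.09 without the correction. Over all genes tested it was -0.03 with the correction and -0.02 without.

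More members passed the test without control replicate 2, in both directions. MRPL19, MRPL39, MRPL42 and MRPS35 were lower and MRPL4, MRPL12, MRPL23, MRPS25 and MRPS34 higher, which is 5.26% and 6.58% of members beside 8.21% and 8.45% of the 15083 genes tested in that fit. MRPS25 and MRPL39 were the only members called both with and without this culture. MRPL19, called only without it, stood at -0.39 on the log2 scale (adjusted p = 0.012, edgeR), and MRPL12, the stalk protein, had 0.48 (adjusted p = 0.0043). With each culture left out in turn, MRPL19 ranged from -0.39 to -0.14 and MRPL12 from -0.03 to 0.48.

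These calls also divided by base composition. Of the 5 members called higher, MRPL4, MRPL12, MRPL23 and MRPS34 had GC contents of 63.6% to 64.8%, and MRPS25 had 47.1%. The 4 called lower, MRPL19, MRPL39, MRPL42 and MRPS35, had 37.0% to 40.9%. The median over the members was 48.0%. Across the members, the log2 fold change without control replicate 2 had a Pearson r of 0.51 (rho 0.50) with GC content, beside 0.10 (rho 0.06) with all 6 cultures. Over 14476 genes with a known transcript, these r were 0.26 (rho 0.30) and 0.05 (rho 0.07). What part library composition has in these values was not tested.

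With each library corrected for its trend with GC content and length, 8 members were lower (MRPL9, MRPL14, MRPL20, MRPL32, MRPL34, MRPL39, MRPL55 and MRPS18A) and 3 higher (MRPL4, MRPS25 and MRPS34). That is 10.5% and 3.95% of members, beside 10.8% and 8.56% of all genes. DESeq2's Wald test called MRPL20, MRPL32, MRPL34 and MRPL39 lower and MRPS25 higher, 5.26% and 1.32% of members beside 5.73% and 6.16%. Under each of these rules the share of members called lower was close to or under that of all genes.

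Promoters of 67 of the 76 members were matched in the RefSeq table used here. The ETS letters CCGGAAG were found on either strand in 28 of them (41.8%), beside 10.7% of all 27305 promoters and 18% of those of tested genes. The YY1 letters AAGATGGC were in 19 (28.4%), beside 3.03% of all promoters and 5.09% of those of tested genes. The SP letters GGGCGG were in 40 (59.7%), beside 44.6% and 69.7%. An NRF1 motif (GCGCA followed by TGCGC, or the same letters shifted by 1 base) was in the promoters of MRPL17, MRPL22 and MRPS18C, 4.48% beside 1.69% of all promoters and 2.72% of those of tested genes. The palindrome TCTCG followed by CGAGA was in 1 (1.49%), beside 0.469% and 0.833%. Matches of different motifs overlapped in 1 place, in 1 member.

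The matches had a typical place. Of 20 YY1 matches, 16 were on the strand of the gene, 14 began after the annotated start, and their median first base was 10 bases into the transcript. Of 37 ETS matches, 26 began within 50 bases of the start, with a median position of -22. Members with and without a motif had similar values, with a median log2 fold change of -0.11 with ETS letters and -0.07 without, and of -0.10 with YY1 letters and -0.09 without. The factors themselves had log2 fold changes of -0.0018 for GABPA (adjusted p = 0.994), -0.08 for YY1 (adjusted p = 0.644) and -0.04 for NRF1 (adjusted p = 0.875).

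Other genes of mitochondrial gene expression were read from the same fit. The 6 tested mitoribosomal proteins with other symbols had a median log2 fold change of -0.04 (0.12 without control replicate 2), and none passed the test. They included DAP3, a small subunit GTP-binding protein (0.05, adjusted p = 0.762), and ICT1, the large subunit release factor homologue (-0.07, adjusted p = 0.845).

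Of 29 tested factors that assemble the mitoribosome, none was lower and 2, WBSCR16 and MTG1, were higher, a share near the 5.4% of all genes. WBSCR16, also known as RCC1L, rose from 455 ± 32.2 to 674 ± 33.9 normalised counts (log2 fold change 0.57, adjusted p = 0.0086). MTG1, a GTPase of large subunit assembly, rose from 887 ± 72.5 to 1187 ± 86.1 (0.42, adjusted p = 0.025, edgeR; SD, n = 3). The median over the 29 was 0.10 and 21 were positive, beside a median of -0.09 for the members. Without control replicate 2 these medians were 0.15 and 0.002. The factors also have longer transcripts, with a median of 2309 nt against 1288 nt for the members, and the part of length in this contrast was not tested. All knockdown cultures lay above the controls for 10 of the 29, beside 16.4% of all genes.

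Of 18 translation factors, GFM2, which splits the ribosome after termination, rose from 1326 ± 168 to 1800 ± 87.5 (log2 fold change 0.44, adjusted p = 0.022), and none fell. That is 1 of 18, again near the 5.4% of all genes. None of 19 genes of mitochondrial transcription and RNA processing passed, among them TFAM (-0.30, adjusted p = 0.113) and POLRMT, the mitochondrial RNA polymerase (0.30, adjusted p = 0.192). Of 11 transcription factors and coactivators of mitochondrial genes, PPRC1, a coactivator of the PGC-1 family, rose from 1609 ± 11.7 to 2095 ± 163 (0.38, adjusted p = 0.021), which is 1 of 11 beside the same 5.4%, and none fell. Messenger RNAs encoded in mitochondrial DNA were not analysed here.

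Negative medians were also found in 2 other families whose transcripts are mostly short. The 83 tested cytosolic ribosomal protein genes had a median log2 fold change of -0.25, or -0.03 without control replicate 2, which held the highest value for 89.2% of them, and -0.23 with the GC and length correction. The 77 tested nuclear genes of oxidative phosphorylation subunits had a median of -0.23, or 0.02 without it, and 79.2% were highest there. With the correction this median was -0.19, so the medians of both families stayed near their uncorrected values. All these lists share the same libraries.

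Some member counts may include reads of other genes. Another annotated gene overlaps 48 members, on the same strand for 23, and GENCODE names pseudogenes after 36. MRPS24, the member left out, is overlapped on its own strand by the readthrough gene URGCP-MRPS24, which had 0 to 2 counts. Of pseudogenes with counts of their own, MRPS31P5 had 123 to 186 (log2 fold change -0.32, adjusted p = 0.224) and MRPL45P2 had 39 to 76 (-0.23, adjusted p = 0.581).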

How the data were processed

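RNA-seq libraries of 6 HEK293 cultures were analysed. The authors trimmed reads with Trim Galore 0.6.6 after FastQC 0.11.9, removed ribosomal RNA reads, aligned to hg38 with STAR 2.7.9a and deposited whole-number counts per gene from featureCounts 2.0.1, without normalization (versions from the submitters' processing notes). The annotation, strand setting and handling of multi-mapping reads are not given in the sources used here. Library preparation was labelled stranded and poly(A).

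Gene names were matched to GENCODE 44. Genes passing filterByExpr (14877) were normalised by TMM and tested with edgeR 4.0.16 in R 4.3.3 (robust quasi-likelihood F test, no block, Benjamini-Hochberg). The study's methods use DESeq2, run here as an alternative (1.42.0), as were limma-voom 3.58.1, other scalings and filters, a replicate block, a GC and length correction (loess, span 0.3) and leaving out each culture. Normalised counts are counts per effective library size, times its mean. With 200 genes changed by 1 log2 unit among 14858 simulated, edgeR recovered 192 with 13 false calls. The planted changes were larger than that of any member and were placed only in well-counted genes. No trend with GC content or length was simulated, so these figures do not give the power or error rate for the members.

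Members, lists and tests were chosen with earlier results of these data known. Named members were all called ones, the 5 largest and 5 smallest log2 fold changes, the 3 highest and 3 lowest levels per kb, MRPL40, MRPL45, the MRPS18 genes and MRPS24. Other members and genes were named after their values were seen. For 1 value, an exact permutation of 3 against 3 cultures cannot go below 0.10.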

Additional observations from a re-analysis of the deposited data

How the results depend on the processing

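The number of members called lower (1 with all cultures, edgeR) ranged from 0 to 4 when each culture was left out in turn. It was 0 without knockdown replicate 1, 2 or 3 (1 member higher in each, 6 to 7 members at an unadjusted p under 0.05), 4 without control replicate 2 and 2 without control replicate 3. Without control replicate 1 it stayed 1, but the member was MRPL33 in place of MRPL39. It was 2 with no filter, 4 with DESeq2's Wald test and 8 with the GC and length correction. The number called higher (1) ranged from 1 to 5 over the cultures left out, with 5 without control replicate 2, and was 3 with the correction. With the replicate number as a block, 3 members were lower and 1 higher. Cultures with the same replicate number had correlations of their deviations of -0.199, -0.112 and -0.044. With 3 cultures in each group, these values cannot show whether any cultures were handled as pairs. MRPL45 ranged from -0.10 to 0.01 over the cultures left out, turning to 0.013 without knockdown replicate 3 and 0.012 without control replicate 3, and MRPS18B from -0.163 to 0.055, the latter without control replicate 2. In all, 33 members changed sign when 1 culture was left out. DESeq2 size factors, library sizes alone, a minimum of 10 counts in every culture and limma-voom each called MRPL39 lower and MRPS25 higher. The cause of these differences was not tested.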
